A study of Mus musculus with 4 samples.

Results

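The 64 genes described here encode the protein side of the splicing machinery: the Sm and snRNP-specific proteins (Snrp), the SR proteins (Srsf), the heterogeneous nuclear ribonucleoproteins (Hnrnp), the Sm-like proteins (Lsm) and the SF3A and SF3B subunits (Sf3). They were chosen by the start of their gene symbol and by having 20 or more read counts in any library, which makes them 64 of the 11986 named genes that reach that count and of 21959 genes listed. The members comprised 11 Snrp, 11 Srsf, 20 Hnrnp, 13 Lsm and 9 Sf3 genes. Of 67 genes with these prefixes, 3 missed the count. Snrpn, a close relative of Snrpb, had 19 counts in the dendritic cell library from PBS mice and 0 in the others, and Lsmem1 and Lsmem2, which encode membrane proteins and no Sm-like protein, had 0 everywhere. The members nearest the limit from above were Srsf4, with 59 counts in its highest library, and Sf3a2, with 102.

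The study examined mice carrying MC38 tumours, a colon carcinoma line, that received either PBS or X-Ray+O-IMDQ, a treatment in which radiotherapy activates a prodrug. Dendritic cells (DCs), which present antigen, and CD3+ T cells were taken from the tumours 72 h after the second treatment, and their mRNA was sequenced. The 4 groups were DCs from PBS mice, DCs from X-Ray+O-IMDQ mice, T cells from PBS mice and T cells from X-Ray+O-IMDQ mice, with 1 library each, and all mice carried the tumour. Strain, sex, age, the number of mice pooled and how the cells were purified are not given in the sources used here. X-Ray alone and prodrug alone are not among the groups analysed here, so the parts of the combination cannot be told apart.

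Splicing removes introns from pre-mRNA. Each spliceosomal snRNP except U6 carries a ring of Sm proteins around its snRNA, U6 carries a ring of LSm proteins, and U1 and U2 add proteins of their own that read the 5′ splice site and the branch point. SR proteins mostly favour the use of exons they bind, many hnRNPs bind pre-mRNA and often oppose that use, and in T cells the balance between both families is known for shaping alternative exons of Ptprc, which encodes CD45. These sentences are background, and isoforms were not measured here.

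With 1 library per group, every comparison is between libraries and has no replicate check, so no p-value is given. Ratios are treated over PBS, of counts scaled between the libraries of a cell type by TMM, with an exact conditional binomial 95% interval that covers counting error only, since reads copied by PCR and not tagged by molecule are no independent draws. A gene is called higher or lower when its log2 ratio is at least 1 in size and the interval excludes 0. FPKM, the level per gene length and depth, is used to compare genes. Library totals ran from 14056428 counts, in treated DCs, to 23797357, in PBS DCs. The T cell receptor genes Cd3e, Cd3d and Cd3g had between 4266 and 64986 counts in the T cell libraries. In PBS and treated DCs Cd3e had 0 and 0, Cd3d 434 and 812, and Cd3g 576 and 1. Of 10 conventional DC markers, 4 were higher and 4 lower in treated DCs. Flt3 (16 and 69 counts), Zbtb46 (9 and 57), Clec9a (154 and 952) and Irf8 (1866 and 2153) were higher, Batf3 (479 and 0), Cd209a, Cd74 and H2-Ab1 were lower, and Itgax and Xcr1 were neither. Their summed level was 59339 CPM in PBS DCs and 8454 CPM in treated DCs, most of it from H2-Ab1 (1170633 and 82819 counts) and Cd74 (254798 and 26323), genes of MHC class II presentation. Fewer cells of a type and less RNA per cell cannot be told apart in such bulk libraries.

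Splicing genes leaned higher in treated DCs and stayed close to their PBS level in treated T cells. In DCs, 24 of the 62 members with enough counts were called higher, where 30.2% of all 10316 genes were, and 10 were called lower, where 41.8% of all genes were. The members' shares were 38.7% and 16.1%, and 28 members were neither. Their median log2 ratio was 0.53, against -0.36 over all genes tested. Srsf4 (9 counts, then 0) and Srsf12 (0 in both) did not pass the filter in DCs. In T cells, 3 of 64 members were called higher and 7 lower, where 18.3% and 25.4% of 11058 genes were, and 54 were neither. The members' shares there were 4.69% and 10.9%, and the median log2 ratio was -0.18, against -0.07 over all genes. With upper-quartile scaling in place of TMM, 2 members were higher and 11 lower in T cells. The counts that enter these ratios also entered the choice of members, so the shares are a description. The shares of all genes given here are also the background for the counts by family and by list below.

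The members also moved less far than other genes did. The median size of the log2 ratio, whatever its sign, was 1.16 over members and 2.04 over all genes in DCs, and 0.47 and 0.83 in T cells. Over all genes with 100 or more counts in either library of the cell type it was 1.79 in DCs and 0.71 in T cells. That set was not matched to the members by count, and how much of the gap goes with count level was not tested. Of the genes with 100 or more counts in PBS DCs, 942 of 7857 had 0 counts in treated DCs, and none of the 57 members did. Genes lost in that way weigh on the background: where only genes with 20 or more counts in both DC libraries were kept, the median was 0.20 over all genes and 0.56 over the 57 members left. In that setting 22 members were called higher and 7 lower, against 32.9% and 26.2% of all genes.

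**Figure D1:**
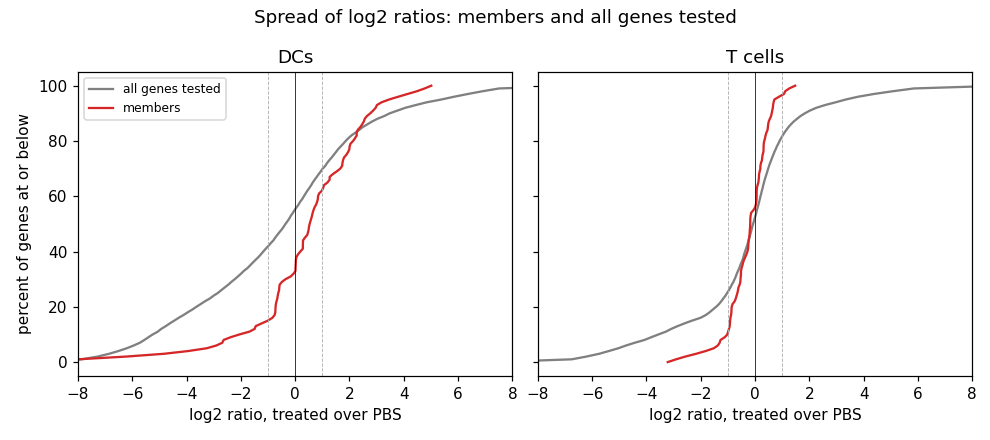
Percent of genes (vertical axis) at or below each log2 ratio of treated over PBS (horizontal axis, drawn from -8 to 8), for the members (red) and all genes tested (grey) in DCs (left) and T cells (right). Dashed lines mark log2 ratios of -1 and 1. The red line is steeper in both panels, and in DCs its median of 0.53 lies to the right of the grey median of -0.36.

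Levels of the members were alike in the PBS libraries of both cell types and in both T cell libraries, while treated DCs stood apart. Over the 64 members, Pearson's r of log2(FPKM + 1) was 0.94 between PBS DCs and PBS T cells, 0.95 between the T cell libraries, 0.72 between the DC libraries and 0.66 between treated DCs and treated T cells. Over all 11986 genes the same values were 0.78, 0.91, 0.78 and 0.64. These are descriptions across genes, which are not independent replicates and share each library's depth. Snrpb had the highest FPKM of the members in PBS DCs (369), PBS T cells (553) and treated T cells (462), and Lsm7 had it in treated DCs (1233). The summed FPKM of the members was 2265 in PBS DCs, 4616 in treated DCs, 3555 in PBS T cells and 2903 in treated T cells.

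**Figure D2:**
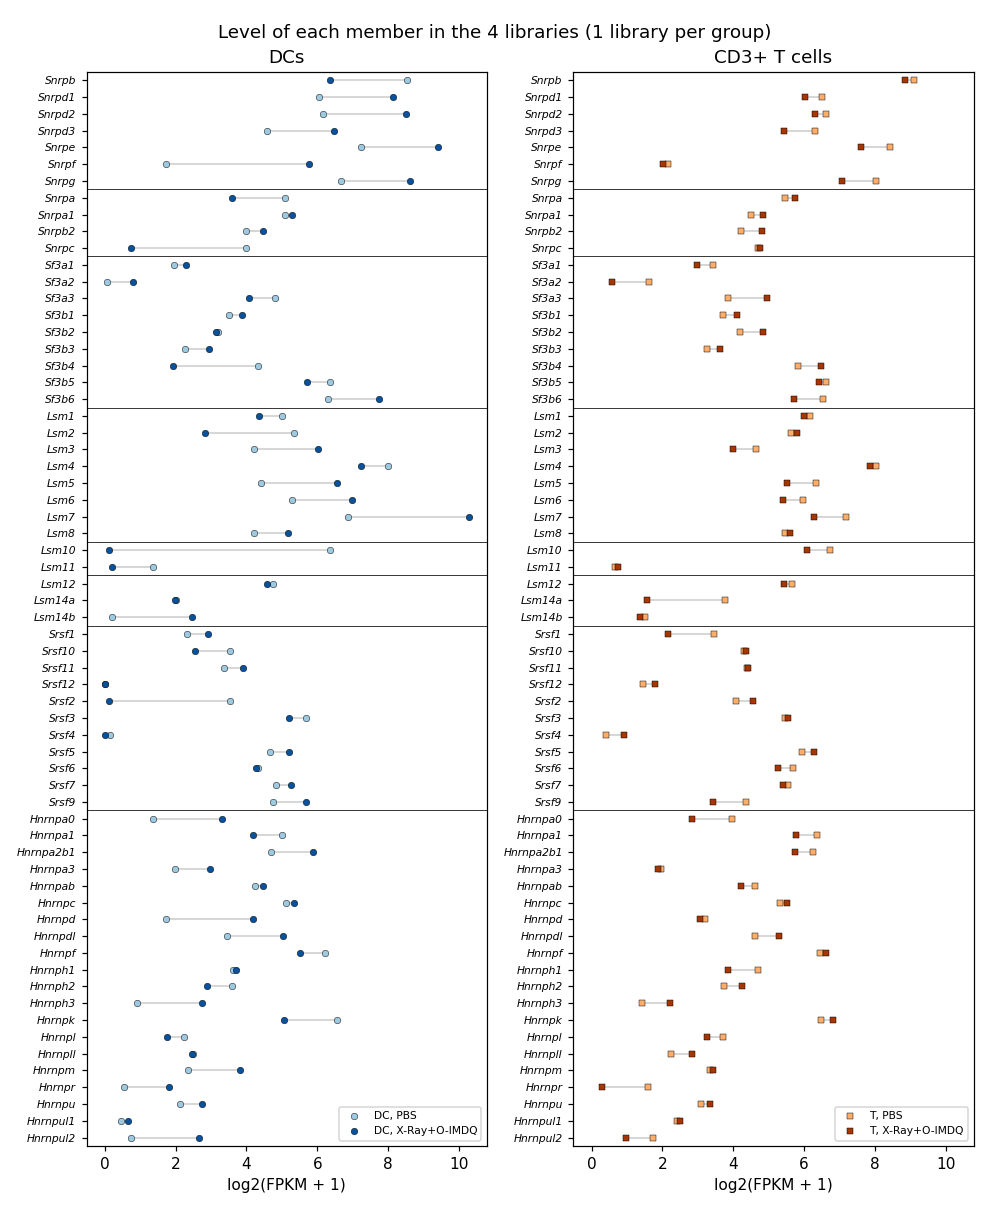
Level of each of the 64 members as log2(FPKM + 1) in DCs (left) and T cells (right), light symbols for the PBS library and dark symbols for the treated one, with a grey line joining them and black lines separating the roles. The dark and light symbols lie far apart for many genes in DCs, such as Lsm10, Srsf2 and Snrpf, and close together for most genes in T cells.

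The Sm core genes changed together in DCs with 1 exception. Of the 7 genes, whose products form the ring on U1, U2, U4 and U5 snRNA, 6 were called higher in treated DCs and Snrpb was called lower, with a median log2 ratio of 2.16. Snrpf (ENSMUSG00000020018, GRCm39 chromosome 10, 93418891 to 93425568), encoding SmF, went from 47 to 651 counts in DCs, or 2.29 to 53.8 FPKM. That is 24.4-fold higher, with a log2 interval of 4.18 to 5.07, and in T cells it had 55 and 49 counts, within counting error. Snrpe, encoding SmE, went from 148 to 683 FPKM in DCs, 4.81-fold higher, and Snrpg, encoding SmG, from 101 to 388 FPKM, 3.99-fold higher. SmE, SmF and SmG join the ring as a trimer. The D-type genes moved alike: Snrpd2 went from 70.5 to 362 FPKM (5.34-fold), Snrpd1 from 65.0 to 279 (4.48-fold) and Snrpd3 from 22.7 to 87.6 (4.02-fold). For each of these 6 genes treated DCs had the highest of the 4 FPKM values, and for 5 of them, all but Snrpd1, PBS DCs had the lowest.

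Snrpb (ENSMUSG00000027404, GRCm39 chromosome 2, 130013555 to 130021323) encodes SmB, the partner of SmD3 in the ring. It had 16235 counts in PBS DCs and 2127 in treated DCs, or 369 and 81.8 FPKM, 4.33-fold lower with a log2 interval of -2.18 to -2.05. In T cells it had 553 and 462 FPKM, a log2 ratio of -0.29. Its share of the summed FPKM of the 7 Sm genes was 47.4% in PBS DCs, 4.23% in treated DCs, 38.7% in PBS T cells and 47.2% in treated T cells. Snrpb was the highest Sm gene in the other 3 libraries and the second lowest in treated DCs. Snrpn is a near-identical relative, and how reads that fit both were counted is not known, so the values of both carry that uncertainty. In T cells none of the 7 Sm genes was called, and all 7 ratios were below 0, from -0.18 for Snrpf to -0.99 for Snrpg, with a median of -0.52. Snrpg (-1.08) and Snrpd3 (-1.02) were called lower with upper-quartile scaling, Snrpg also with TMM scaling that left out ribosomal protein, mitochondrial and receptor genes, and Snrpd3 (-1.02) also with a correction for gene length.

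**Figure D3:**
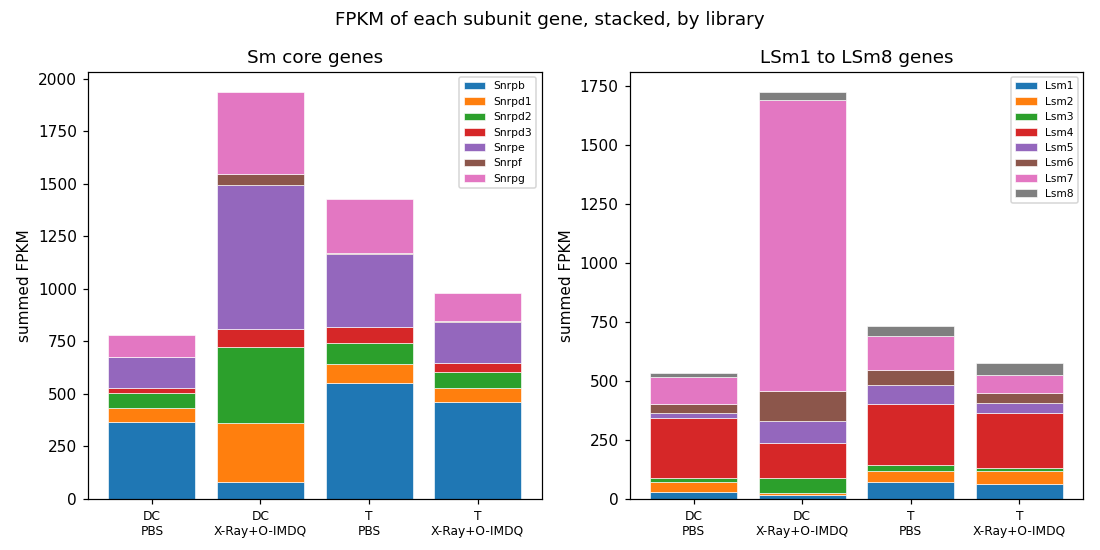
FPKM of each Sm core gene (left) and each LSm1 to LSm8 gene (right), stacked to the summed FPKM, in the 4 libraries. In treated DCs the blue Snrpb block is 81.8 FPKM of the Sm stack and the pink Lsm7 block is 1233 FPKM of the LSm stack, and the other 3 libraries have stacks of similar make-up.

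The upstream promoter sequences of 5 Sm genes that were higher in treated DCs are printed here beside that of Snrpc, a U1 gene that was lower, so that genes which moved in opposite directions can be compared. Each runs over the 250 bases before the annotated start, 5′ to 3′ on the gene's strand, from RefSeq on mouse build GRCm38.p6. Capitals mark matches, on either strand, to any of 7 motifs searched: CCAAT (bound by NF-Y), GGGCGG (the GC box of Sp1), CCGGAA (the ETS core), AAGATGGCG (the YY1 core), TATAAA (the TATA box), TTCNNNGAA (the GAS element of STAT factors) and GAAANNGAA (the core of the interferon response element). Where matches overlap, they run together as 1 stretch of capitals, as the GC box and the CCAAT box do near the start of the Snrpd3 sequence.
Snrpc (chr17:27839837-27840086, plus strand): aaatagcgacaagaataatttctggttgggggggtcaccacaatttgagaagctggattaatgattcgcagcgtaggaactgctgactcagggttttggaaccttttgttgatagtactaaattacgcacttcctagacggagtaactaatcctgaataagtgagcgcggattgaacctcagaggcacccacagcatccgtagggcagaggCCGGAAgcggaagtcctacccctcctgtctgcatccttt
Snrpd2 (chr7:19149588-19149837, plus strand): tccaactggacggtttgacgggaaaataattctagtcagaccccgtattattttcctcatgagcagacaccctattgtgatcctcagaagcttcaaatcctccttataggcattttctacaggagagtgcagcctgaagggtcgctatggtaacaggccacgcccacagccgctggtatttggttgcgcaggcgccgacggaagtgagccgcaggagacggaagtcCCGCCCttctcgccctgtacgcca
Snrpd3 (chr10:75517792-75518041, plus strand): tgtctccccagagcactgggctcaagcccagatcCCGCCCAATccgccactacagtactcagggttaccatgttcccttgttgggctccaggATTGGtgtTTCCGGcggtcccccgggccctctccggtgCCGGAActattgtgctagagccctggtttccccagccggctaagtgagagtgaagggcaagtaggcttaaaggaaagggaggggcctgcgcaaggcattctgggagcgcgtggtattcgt
Snrpe (chr1:133610281-133610530, minus strand): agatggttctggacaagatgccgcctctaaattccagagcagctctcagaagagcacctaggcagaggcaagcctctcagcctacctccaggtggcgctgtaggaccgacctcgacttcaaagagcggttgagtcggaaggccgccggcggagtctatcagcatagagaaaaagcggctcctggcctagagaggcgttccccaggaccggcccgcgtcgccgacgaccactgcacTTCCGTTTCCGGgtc
Snrpf (chr10:93589659-93589908, minus strand): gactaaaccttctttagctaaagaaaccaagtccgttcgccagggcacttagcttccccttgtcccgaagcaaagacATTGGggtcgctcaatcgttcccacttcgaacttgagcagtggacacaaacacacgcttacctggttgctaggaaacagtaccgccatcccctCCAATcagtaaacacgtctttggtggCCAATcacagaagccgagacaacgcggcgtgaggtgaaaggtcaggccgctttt
Snrpg (chr6:86371290-86371539, plus strand): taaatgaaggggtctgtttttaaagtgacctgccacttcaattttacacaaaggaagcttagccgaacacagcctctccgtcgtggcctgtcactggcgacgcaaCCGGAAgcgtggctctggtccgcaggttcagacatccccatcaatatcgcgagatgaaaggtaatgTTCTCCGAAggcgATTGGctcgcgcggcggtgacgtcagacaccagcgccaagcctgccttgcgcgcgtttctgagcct

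Snrpf had 3 CCAAT matches, Snrpd3 had 2 and Snrpg had 1. An ETS core stood in the windows of Snrpc, Snrpe and Snrpg once each and in that of Snrpd3 at 2 places, so it was present in the gene that was lower as well as in 3 that were higher. The Snrpe window held 1 interferon-type core, which overlaps its ETS core, and the Snrpg window held 1 GAS element. Windows were found for 55 of the 64 members, 71 windows in all. A GC box stood in 70.4% of them and in 32.7% of all 32851 windows of this length in the RefSeq table. The ETS core stood in 28 of the 71 member windows, or 39.4%, and in 3952 of all windows. CCAAT stood in 42.3% against 33.9%, and the TATA box in 7.04% against 12.4%. The GAS element stood in 5.63% against 7.02%, the interferon-type core in 4.23% against 7.13%, and the YY1 core in 1.41% against 0.606%. The set of all windows was not limited to genes with counts in these libraries, while the members were chosen by counts. Whether these shares differ from those of other expressed genes was not tested. A match is a description of the letters, not evidence of a bound site, and windows of 1 gene can overlap.

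Apart from the SF3A and SF3B subunits, which are described below, 4 members encode U1- or U2-specific proteins. None of these 4 Snrp genes was called higher in DCs, and 2 were called lower. Snrnp70, the U1 70K gene, which lies outside the prefixes, was called higher there, with 428 and 2174 counts. Snrpc (ENSMUSG00000024217, GRCm39 chromosome 17, 28057124 to 28070942) encodes the C protein of U1, which helps U1 snRNP hold the 5′ splice site. It had 2308 counts in PBS DCs and 60 in treated DCs, 14.9 and 0.655 FPKM, 21.8-fold lower with a log2 interval of -4.84 to -4.08. In T cells it had 3009 and 3163 counts. Snrpa, encoding the A protein of U1, which binds a stem loop of U1 snRNA, went from 33.2 to 11.1 FPKM in DCs, 2.86-fold lower, and from 42.8 to 52.6 in T cells. Its DC call was lost with a correction for gene length (log2 ratio -0.84). The U2 genes Snrpa1 and Snrpb2, whose products pair with each other on U2 snRNA, had log2 ratios of 0.28 and 0.56 in DCs, where neither was called. In T cells all 4 genes had ratios above 0, from 0.06 to 0.59, and none was called. The lowest of them, that of Snrpc, was -0.04 with upper-quartile scaling.

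The SF3A and SF3B complexes bind U2 snRNP to the branch point. In DCs 2 of their 9 genes were called higher, 1 lower and 6 neither, with a median log2 ratio of 0.44, and in T cells 1 was higher, 1 lower and 7 neither, with a median of 0.37. Sf3b1, whose product clamps the branch point helix, was called in neither cell type, at 10.4, 13.5, 12.2 and 16.3 FPKM in PBS DCs, treated DCs, PBS T cells and treated T cells. Sf3b6, encoding the p14 subunit at the branch point, went from 78.3 to 214 FPKM in DCs, 2.85-fold higher, and from 92.5 to 51.7 in T cells, a log2 ratio of -0.87. Sf3b4 (GRCm39 chromosome 3, 96079648 to 96084880), whose product contacts pre-mRNA near the branch site, moved the other way, from 990 to 86 counts in DCs, 6.52-fold lower, and from 2247 to 3495 in T cells, a log2 ratio of 0.62. The small subunit gene Sf3b5 had 80.5 and 51.5 FPKM in DCs and 96.9 and 84.4 in T cells and was called in neither. The SF3A genes differed among themselves. Sf3a2 had 3 and 28 counts in DCs, a log2 ratio of 4.04 with an interval of 2.35 to 6.40, and 102 and 24 in T cells, a ratio of -2.10 with an interval of -2.81 to -1.45. Sf3a3 had 13.5 and 30.1 FPKM in T cells, 2.19-fold higher, and 27.0 and 15.7 in DCs, a log2 ratio of -0.73. Sf3a1, Sf3b2 and Sf3b3 were called in neither cell type.

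Within the LSm ring, Lsm7 set the level in treated DCs. LSm2 to LSm8 form the ring on U6 snRNA, and LSm1 replaces LSm8 in the ring that promotes decapping of mRNA in the cytoplasm. Of these 8 genes, 5 were called higher in treated DCs, 1 lower and 2 neither, with a median log2 ratio of 1.41. Lsm7 (ENSMUSG00000035215, GRCm39 chromosome 10, 80688655 to 80691043) had 4390 counts in PBS DCs and 27749 in treated DCs, or 115 and 1233 FPKM, 11.2-fold higher with a log2 interval of 3.43 to 3.53. In T cells it had 144 and 76.6 FPKM, a log2 ratio of -0.94. Its share of the summed FPKM of the ring was 21.6% in PBS DCs, 71.5% in treated DCs, 19.6% in PBS T cells and 13.3% in treated T cells. The others called higher in DCs were Lsm5 (20.2 to 93.0 FPKM), Lsm3 (17.5 to 63.6), Lsm6 (37.8 to 124) and Lsm8 (17.5 to 34.8). The Lsm8 call was lost with total-count CPM or the deposited FPKM (log2 ratio 0.99), and those of Lsm5 (0.19) and Lsm8 (0.75) once length and GC content were both corrected for. Lsm2 was called lower, from 39.3 to 6.09 FPKM, 6.18-fold. Lsm4, the highest of the ring in PBS DCs at 256 FPKM, had 150 in treated DCs, and Lsm1 had 31.2 and 19.3. Neither was called. In T cells none of the 8 was called, and 6 ratios lay below 0, with a median of -0.41. Lsm7 was called lower there with upper-quartile scaling (-1.03).

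Both U7 genes were lower in treated DCs. LSm10 and LSm11 take the place of SmD1 and SmD2 in U7 snRNP, which processes the 3′ ends of histone mRNA rather than introns. Lsm10 (ENSMUSG00000050188, GRCm39 chromosome 4, 125990416 to 125992377) had 1827 counts in PBS DCs and 1 in treated DCs, a log2 ratio of -10.02 with an interval of -15.3 to -7.54. That ratio uses the 1 count as it stands, and with the floor of 3 counts that libraries at 0 were given it would be -8.43. In T cells it had 1862 and 1168 counts, a log2 ratio of -0.69. Lsm11 went from 241 to 14 counts in DCs, 9.76-fold lower, and had 70 and 81 in T cells, within counting error. The genes whose products they replace, Snrpd1 and Snrpd2, were higher in treated DCs.

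The remaining Lsm genes encode longer proteins with an LSm domain. Lsm14a, encoding a P-body protein that holds back translation, had 441 and 254 counts in DCs (log2 ratio 0.02) and 1458 and 222 in T cells, 6.63-fold lower with an interval of -2.94 to -2.52. Its relative Lsm14b was called in DCs instead, with 10 and 183 counts there, 32.3-fold higher, and 99 and 84 in T cells, within counting error. At 0.145 and 4.50 FPKM in DCs, Lsm14b stayed a low gene. Lsm12 was called in neither cell type.

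**Figure D4:**
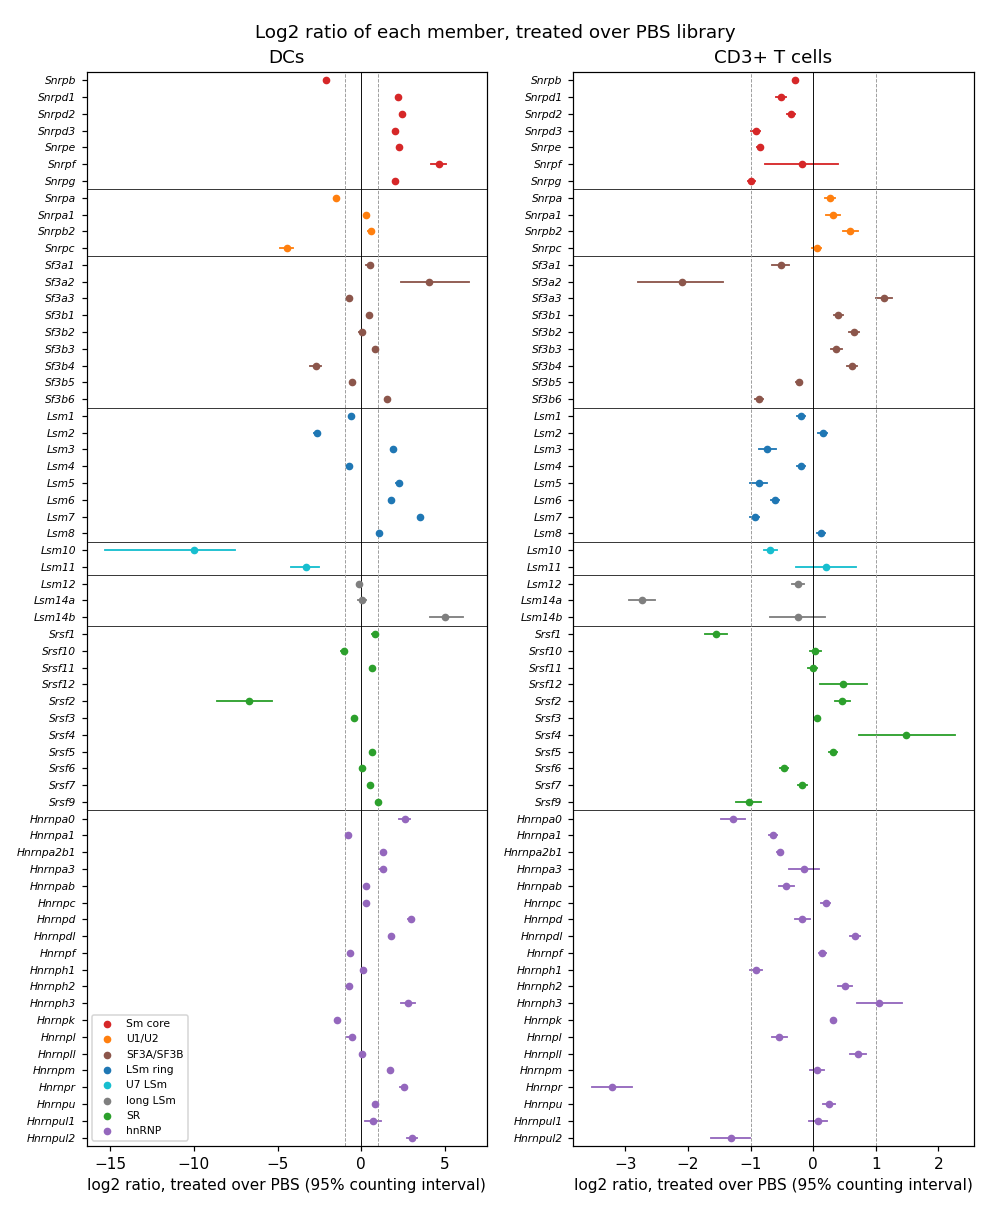
Log2 ratio of treated over PBS for each member in DCs (left) and T cells (right), coloured by role, with horizontal bars for the 95% counting interval. Dashed lines mark -1 and 1, and the horizontal scales differ between the panels. In DCs the Sm core points other than Snrpb lie right of 1 and those of Lsm10, Srsf2 and Snrpc far left, while most T cell points lie between the dashed lines.

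Most SR protein genes were called in neither direction in both cell types, with Srsf2 far from the rest in DCs. In DCs 1 of 9 genes that passed the filter was called higher, 2 lower and 6 neither, and in T cells 1 of 11 was higher, 2 lower and 8 neither. Srsf2 (ENSMUSG00000034120, GRCm39 chromosome 11, 116740727 to 116743920) encodes SC35, which binds exonic enhancers. It had 740 counts in PBS DCs and 4 in treated DCs, 105-fold lower with a log2 interval of -8.59 to -5.35, and 880 and 1227 in T cells, a log2 ratio of 0.47. Srsf1, encoding the constitutive factor ASF/SF2, had 1074 and 369 counts in T cells, 2.94-fold lower, and 538 and 528 in DCs, a log2 ratio of 0.79 that was not called. Srsf3, the smallest SR protein and the SR gene with the most counts in DCs, had 50.7 and 35.7 FPKM in DCs and 43.3 and 45.9 in T cells, called in neither. Srsf5 and Srsf7 were called in neither as well, with log2 ratios between -0.18 and 0.61, and so were Srsf6 (19.1 and 18.4 FPKM in DCs, 50.9 and 37.5 in T cells) and Srsf11 (9.31 and 14.0 in DCs). Srsf12 was not called in T cells either. Srsf10, encoding a splicing repressor that becomes active when dephosphorylated, went from 1750 to 480 counts in DCs, a log2 ratio of -1.05, and had 2451 and 2535 in T cells. Its DC call was lost with upper-quartile scaling (-0.997) and with centring on the median of all genes (-0.69). Srsf9 had 25.9 and 50.1 FPKM in DCs, a log2 ratio of 1.01, and 19.4 and 9.67 in T cells, a ratio of -1.03. Both Srsf9 ratios lay at the limit, and each call was lost under 4 alternatives. In DCs these included total-count CPM and the deposited FPKM, which give the same ratio. The low gene Srsf4 had 21 and 59 counts in T cells, a log2 ratio of 1.48 with an interval of 0.74 to 2.27, and a difference of 0.96 on the log2(CPM + 1) scale, where it was not called.

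The hnRNP genes were the largest family and held 9 of the 24 members called higher in treated DCs. Among its 20 genes 1 was lower and 10 were neither, with a median log2 ratio of 0.77. The family's summed FPKM changed little, with 332 in PBS DCs and 336 in treated DCs. The family's 45% higher and 5% lower stand beside 30.2% and 41.8% of all genes. Hnrnpul2, encoding a DNA- and RNA-binding protein of the hnRNP U type, went from 115 to 533 counts, 8.18-fold higher. Hnrnpd, encoding AUF1, which binds AU-rich elements and governs mRNA decay, went from 401 to 1762 counts, 7.75-fold higher. Its relative Hnrnpdl went from 9.85 to 31.6 FPKM, 3.34-fold higher. Hnrnph3 went from 65 to 254 counts, Hnrnpa0 from 100 to 339 and Hnrnpr from 242 to 788, which is 6.89-fold, 5.98-fold and 5.75-fold higher. Hnrnpm (log2 ratio 1.72), Hnrnpa3 (1.27) and Hnrnpa2b1 (1.27) were the other 3. Hnrnpa2b1, whose product also sorts RNA and binds modified adenosine, had the highest level of the 9 in treated DCs, 57.8 FPKM, and went from 3919 to 5348 counts. Its call and that of Hnrnpa3 were lost once length and GC content were both corrected for (log2 ratios 0.75 and 0.50).

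Hnrnpk (ENSMUSG00000021546, GRCm39 chromosome 13, 58538956 to 58551157), encoding a KH-domain protein that binds C-rich RNA, was the single hnRNP gene called lower in DCs. It had 14305 counts in PBS DCs and 2969 in treated DCs, or 93.0 and 32.7 FPKM, 2.73-fold lower with an interval of -1.51 to -1.39, and 87.9 and 112 FPKM in T cells, a log2 ratio of 0.32. Hnrnpf, encoding a binder of G-rich tracts, had 73.8 and 44.9 FPKM in DCs and 86.0 and 96.6 in T cells. Hnrnpa1, a repressor of exon inclusion, had 31.0 and 17.4 FPKM in DCs and 81.7 and 53.5 in T cells, with log2 ratios of -0.78 and -0.64. Neither gene was called. Hnrnpl and Hnrnpll, whose products repress the variable exons of CD45 in T cells, split in T cells without a call: Hnrnpl went from 12.1 to 8.49 FPKM (-0.54) and Hnrnpll from 3.70 to 6.21 (0.72). In DCs their ratios were -0.59 and 0.03. Hnrnpu, a nuclear scaffold protein, had 0.83 in DCs and 0.26 in T cells. Hnrnpab, Hnrnpc, Hnrnph1, Hnrnph2 and Hnrnpul1 were called in neither cell type.

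In T cells 3 hnRNP genes were called lower and 1 higher, with a median log2 ratio near 0, at -0.04. These are 15% and 5% of the family, both below the 25.4% and 18.3% of all genes called lower and higher. Hnrnpr (ENSMUSG00000066037, GRCm39 chromosome 4, 136038253 to 136086758), encoding a binder of mRNA in nucleus and cytoplasm, had 837 counts in PBS T cells and 91 in treated T cells, 9.28-fold lower with an interval of -3.54 to -2.90. That was the lowest ratio of any member in T cells. Hnrnpul2 had 309 and 125 counts and Hnrnpa0 725 and 301, 2.49-fold and 2.43-fold lower. Hnrnph3 was higher, with 100 and 210 counts, a log2 ratio of 1.06 with an interval of 0.71 to 1.42, and its call was lost under 3 alternatives.

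Few members were called in both cell types. Hnrnph3 was called higher in both, no member was called lower in both, and 5 members were called higher in DCs and lower in T cells: Hnrnpr, Hnrnpul2, Hnrnpa0, Sf3a2 and Srsf9. Over all genes 30.2% were called higher in DCs and 25.4% lower in T cells, and genes with both calls were not counted. The DC call of Hnrnpr was lost once length and GC content were both corrected for (log2 ratio 0.58). Of the rest, 18 were higher in DCs and neither in T cells, and 10 were lower in DCs and neither in T cells, among them Snrpb, Snrpc, Lsm10, Srsf2 and Hnrnpk. Over the 62 members with both ratios, Pearson's r between DC and T cell ratios was -0.29 and Spearman's rho -0.41, against 0.00 and -0.02 over 9388 genes. This is a description across genes, whose ratios within a cell type share the same pair of libraries.

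**Figure D5:**
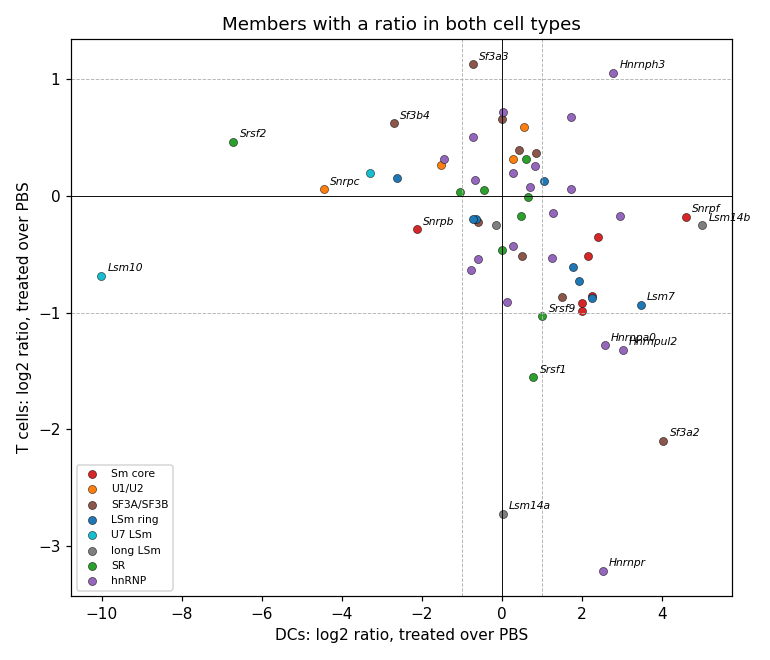
Log2 ratio of treated over PBS in DCs (horizontal axis) against that in T cells (vertical axis) for the 62 members with both, coloured by role, with dashed lines at -1 and 1. Hnrnpr, Sf3a2, Hnrnpul2, Hnrnpa0 and Srsf9 lie in the lower right, and Hnrnph3 is alone in the upper right.

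Other genes of the pathway, taken from 9 lists with 124 genes, were called at rates near or below those of all genes. In DCs 32 of 122 tested were called higher (26.2%) and 44 lower (36.1%), where all genes gave 30.2% and 41.8%, with a median log2 ratio of 0.11. In T cells 17 of 124 were higher (13.7%) and 12 lower (9.68%), where all genes gave 18.3% and 25.4%, at a median of -0.08. The genes named at the ends of each list are those with the highest and lowest interval bound nearer 0, not the highest and lowest ratio. The snRNP assembly factors, which load Sm rings onto snRNA, stood opposite to the Sm genes in DCs: 13 of 15 were lower, none was higher, and the median was -3.30. Among them 5 had 0 counts in treated DCs, including Gemin2, which had 749 in PBS DCs, and Gemin6, which had 1189. Both encode parts of the SMN complex. With its 0 counts entered at the floor of 3 counts, Gemin6 was 224.6-fold lower. That value is set by the floor, and the 95% interval reached up to a log2 ratio of -7.51. The highest ratio of the list was that of Strap (952 and 1051 counts), which was not called. In T cells 3 of the 15 were higher and 3 lower, and the median was -0.35, from Gemin4 (117 and 0 counts) to the cap methylase gene Tgs1 (147 and 814). Gemin2 was named after its values were seen.

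The list of U5 and tri-snRNP proteins also holds the U1 gene Snrnp70. On that list 4 of 17 genes were higher and 6 lower in DCs, with Snrnp70 among the 4. In T cells 4 of 18 were higher and 1 lower. Snrnp70 had a log2 ratio of 3.16 in DCs, while Snrnp40, encoding a U5 protein, had 4183 and 200 counts, a ratio of -3.57. Of the exon junction complex genes, 4 of 9 were higher and 3 lower in DCs, led by Magohb (1140 to 5118 counts) on the higher side and Rnps1 (4394 to 319) on the lower. Among SR kinases and SR-like proteins, 4 of 12 were higher and 2 lower in DCs. The speckle protein gene Son had 7655 and 61111 counts and the kinase gene Clk3 had 1781 and 27. Of other splicing regulators, 8 of 23 were higher and 5 lower in DCs, and 1 and 4 in T cells. Tial1, an RNA-binding regulator of splicing and translation, had 102 and 927 counts in DCs, and Ptbp1, the polypyrimidine tract repressor, had 501 and 3.

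The remaining lists were mixed. Branch point and 3′ splice site factors had 1 higher and 2 lower of 10 in DCs, Dhx15 (884 and 1581 counts) at one end and Puf60 (6738 and 1347) at the other, and 2 higher and none lower in T cells. Minor spliceosome genes had 3 higher and 2 lower of 8 in DCs, from Pdcd7 (16 and 152 counts) to Zmat5 (2093 and 152), and 2 and none in T cells. Prp19 complex and catalytic step genes had 5 higher and 7 lower of 20 in DCs, from the helicase gene Dhx38 (24 and 500 counts) to Snw1 (352 and 0) by that bound, and 1 and 2 of 21 in T cells, from Prpf18 (268 and 1235) to Prpf19 (1192 and 363). Decapping partners of the LSm1 ring had 3 higher and 4 lower of 8 in DCs and 2 and 1 in T cells. The decapping enzyme gene Dcp2 had 127 and 596 counts in DCs and 877 and 287 in T cells, and the exonuclease gene Xrn1 had 177 and 6 in DCs and 231 and 596 in T cells.

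Other RNA classes also differed between the libraries. Cytosolic ribosomal protein genes numbered 76 in DCs, with 47 called higher (61.8%, against 30.2% of all genes) and 2 lower, and their median log2 ratio was 1.72, and in T cells none of 77 was higher and 20 were lower (26.0%, near the 25.4% of all genes), at a median of -0.75. All 12 mitochondrially encoded genes tested were higher in DCs, with a median of 3.21. Macrophage markers summed to 5738 CPM in PBS DCs and 1474 in treated DCs, with 4 of 8 lower and none higher. T cell markers summed to 90.4 and 95.5 CPM in the DC libraries and to 10353 and 10850 CPM in the T cell libraries. Within that list the DC counts went in both directions, with Lck at 607 and 0 and Cd5 at 1 and 278. Whether any of these bears on the members' ratios was not tested.

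Some counts are shared with neighbours. By the listed positions, 13 of the 64 members overlap another listed gene, 10 of them on the opposite strand, and the sources used here do not say whether strand was used in the counting, so reads in the overlaps cannot be told apart. Srsf2 overlaps Mettl23 over 3194 bases, its whole listed span, and Mfsd11 over 655 bases. Mettl23 had 1306 and 645 counts in DCs and 4437 and 3495 in T cells, and Mfsd11 had 323 and 67 in DCs. Snrpf overlaps Ccdc38 (0 and 1 counts in DCs) and Hnrnph3 overlaps Rufy2 (9 and 279 counts in DCs). Sf3a2 overlaps Plekhj1, which had 2861 and 224 counts in DCs. Genes of these families have processed pseudogenes, and reads could be split among such copies, so low members carry that uncertainty.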

How the data were processed

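RNA extraction, mRNA library preparation and sequencing were done by BGI, per the labels' protocols. Per the submitters' processing notes, the tools included RSEM 1.2.12 and HISAT2 2.0.4, with DESeq2 1.24.0 in R 3.3.1, and the genome build was GRCm39. Which tool did what is not stated there. The deposited tables give whole-number read counts per gene, which were not normalized by the authors, and FPKM, in which the authors divided by gene length and library total, as recomputing them from the counts and the listed lengths showed (largest relative difference 2.04e-07). The gene length in bases is listed beside them, per the file headers. The read file number in each description tied a column to its sample. The titles carry other replicate numbers for 3 samples, and the description was followed. Each table has 1 other library, named like its PBS one, whose number fits none of the read files in the descriptions. That number is the replicate number in the titles of the PBS samples, so titles and descriptions conflict on which PBS library is meant. Those 4 columns were not used here.

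Counts were scaled with TMM (edgeR 4.0.16, R 4.3.3) within each cell type, and intervals were computed in Python 3.11.15 with scipy 1.17.1. All genes with a symbol and 20 or more counts in either library of a cell type entered, and a library at 0 entered at 3 counts. Counting precision follows from the totals: 3 counts are 0.126 CPM in PBS DCs, 0.213 in treated DCs, 0.161 in PBS T cells and 0.162 in treated T cells. The ratio and interval were tested on simulated counts that held counting error only, the error the interval itself assumes. That test cannot show how they behave with PCR copies or differences between mice. Promoter windows were taken from RefSeq tables by symbol, and GC content from GENCODE transcripts, for all 64 members.

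The members, gene lists and naming rule were chosen with earlier results of these data known. The rule names 42 members: the 6 highest and 6 lowest in each cell type by the interval bound nearer 0 with 100 or more counts, the 3 with the highest mean FPKM of each prefix, those called in opposite directions, those with 0 counts against 100 or more, and 18 chosen by name. It also names, by that same bound, the highest and lowest gene of each of the 9 pathway lists. The other 22 members are named to complete their families, after their values were seen. Of 11 marker lists, those for DCs, T cells and macrophages are given in the results and the others in the closing section, except 1 that is not reported here. Alternatives comprised 13 settings written down at the start and 1 added later.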

Additional observations from a re-analysis of the deposited data

Results flagged for a closer look

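The 5 members called higher in treated DCs and lower in treated T cells are listed because their calls went in opposite directions under the same treatment. Over all genes, 30.2% were called higher in DCs and 25.4% lower in T cells. How many had both calls was not counted, so whether 5 members is more than the background is not known. The log2 ratio in DCs minus that in T cells was 5.74 for Hnrnpr, 6.14 for Sf3a2, 4.35 for Hnrnpul2, 3.86 for Hnrnpa0 and 2.05 for Srsf9. With 1 library per group, these differences were not tested.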

How the results depend on the processing

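The direction of both medians was kept under every alternative run, and no ratio of the 42 named members reversed past its threshold. The calls of 34 named members in DCs and 38 in T cells were kept in all 9 alternatives that rescale or correct the ratios. Among these, total-count CPM and the deposited FPKM give the same ratios and are not separate checks. The DC median was 0.89 when ratios were centred on the median of all genes and 0.30 when length and GC content were both corrected for, which was chosen after seeing the data. With a 1.5-fold threshold 17 members were lower in DCs, and in T cells 8 were higher and 18 lower. With a 4-fold threshold 14 were higher in DCs, and in T cells 0 were higher and 3 lower. Upper-quartile scaling gave 11 lower members and a median of -0.27 in T cells, and log2(CPM + 1) gave 1 higher. The causes of these shifts were not tested, apart from the thresholds, which move counts by construction. The scalings moved all ratios by between -0.06 and 0.05 in DCs and between -0.10 and 0.03 in T cells. Leaving out a replicate could not be done with 1 library per group. No paired analysis was possible because each group has 1 library. Genes with few counts, such as Sf3a2 and Lsm10 in DCs, have wide intervals, and these cover counting error only.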

Other observations

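Markers of other cell types differed widely in level. Monocyte markers summed to 593 and 692 CPM in PBS and treated DCs and to 1952 and 2700 CPM in PBS and treated T cells. In PBS and treated DCs, Fcgr1 had 5963 and 3998 counts, Ccr2 5860 and 4272, Ly6c2 2240 and 906 and Vcan 337 and 355. By FPKM, each lay above the conventional DC markers Flt3 and Zbtb46 in both DC libraries, and below H2-Ab1 and Cd74. Most of the T cell sum came from Ly6c2 (32907 and 47843 counts). The other monocyte markers there were Ccr2 (2755 and 2043), Fcgr1 (7 and 341) and Vcan (387 and 103). Neutrophil markers summed to 21.7 and 93.6 CPM in the DC libraries, with S100a9 and Retnlg at 0 in both, and fibroblast markers to 120 and 164 CPM. Erythroid markers summed to 200.3 and 265 CPM in the DC libraries and to 394 and 560 CPM in the T cell libraries. Markers of MC38 epithelial cells summed to 9.01 and 0 CPM, endothelial markers to 40.2 and 3.27 CPM and NK cell markers to 0 and 9.88 CPM in PBS and treated DCs. In PBS and treated T cells the sums were 2.11 and 1.72 CPM for neutrophils, 161 and 141 for fibroblasts, 4.82 and 0.161 for epithelial cells, 25.4 and 35.8 for endothelial cells and 18.5 and 24.1 for NK cells. Within the fibroblast list the T cell counts went in both directions, with Col1a1 at 450 and 39 and Dcn at 1044 and 1380.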
